A study of Mus musculus with 18 samples.

Results

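Histone deacetylases are described here across myoblasts and day 3 myotubes of 3 mouse C2C12 lines. The 10 genes were taken by symbol from a table of 55450 genes and fall into class I (Hdac1, Hdac2, Hdac3, Hdac8), class IIa (Hdac4, Hdac5, Hdac7, Hdac9), class IIb (Hdac6) and class IV (Hdac11). They are not every histone deacetylase gene, and the family and its classes below mean these 10 only. All 10 passed the filter on low counts, which left 17912 genes to test. C2C12 is an established line of mouse muscle precursor cells (myoblasts), which form multinucleate myotubes in low serum. The study asked how the dosage of the Dlk1-Dio3 noncoding RNA cluster bears on muscle cell state. The control was a sorted EGFP-positive population of cells that had received the pX458 vector alone. The 2 mutant lines, 2-4 and 2-7, had received pX458-type Cas9 and guide constructs aimed in pairs at the promoter region of Meg3, and were grown from cells diluted to 1 per well. The labels call line 2-4 the Dlk1-Dio3 overexpressor and line 2-7 the Dlk1-Dio3 knockout. All lines, the control included, were transfected and sorted for EGFP. They were grown in 10% fetal bovine serum and, for myotubes, switched to 2% horse serum. Each of the 6 groups (control, overexpressor and knockout, as myoblasts or myotubes) has 3 libraries, A, B and C. Each genotype is 1 line, so the genotype and the line that carries it cannot be told apart, and the labels do not say that the replicates were separate cultures, so p-values measure only the spread between these libraries, which may be technical.

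Histone deacetylases remove acetyl groups from lysines of histones and of other proteins, and most act on chromatin as part of corepressor complexes. Class I enzymes are mainly nuclear and carry most of the catalytic activity: HDAC1 and HDAC2 sit in the SIN3, NuRD and CoREST complexes, and HDAC3 in the NCoR complex. Class IIa enzymes have weak catalytic activity of their own. They bind MEF2 transcription factors and repress their targets, and kinases of the CaMK, PKD and SIK families control their export from the nucleus. In muscle, class IIa proteins are known as brakes on MEF2-dependent genes, and signals that send them out of the nucleus release those genes. HDAC6 is cytoplasmic and deacetylates tubulin, and HDAC11 is the sole class IV enzyme. Transcript levels say nothing of where these proteins are or how active they are.

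Total counts ran from 41544358 to 79140702 per library. Levels are given as CPM, read counts divided by the TMM-scaled library size, and 3 counts corresponded to between 0.0375 and 0.0693 CPM. Meg3, whose promoter region the deletions touch, had 5363 to 6924 counts in overexpressor myoblasts and 5222 to 7763 in overexpressor myotubes. It had 0 counts in every control and every knockout library, so Meg3 marks the line labelled overexpressor but does not separate the line labelled knockout from the control. The 10 myogenic markers summed to 1395 to 1599 CPM in control myoblasts, 2601 to 3252 in overexpressor myoblasts and 10478 to 12792 in knockout myoblasts. In myotubes the sums were 12954 to 13674, 22474 to 24634 and 30352 to 36024 CPM in the same order of lines, and none of the 10 was at 0 in any group. The 8 proliferation markers summed to 1654 to 1768, 1442 to 1771 and 1286 to 1384 CPM in myoblasts, and to 147 to 186, 270.3 to 328 and 309 to 355 in myotubes. All 5 adipocyte markers and at least 5 of the 6 macrophage and endothelial markers were under 1 CPM in every group. The knockout myoblasts thus had muscle transcripts close below those of control myotubes, with proliferation markers below the other myoblasts and far above every myotube group. In such bulk RNA, fewer cells of a type and less RNA per cell cannot be told apart. The part of these shifts in the differences between groups was not tested. A set of 3 libraries stood apart from the others of their group in gene counts: overexpressor myoblasts B, control myotubes C and overexpressor myotubes C. Across 17890 genes, the deviation of each from its group's mean ran against transcript GC content (r = -0.39, -0.27 and -0.56), as did that of knockout myotubes A (r = -0.43). The deviation ran with GC content most in overexpressor myotubes A and knockout myotubes C (r = 0.45 and 0.36).

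Promoter sequence was at hand for 8 of the 10 genes, as 250 bases before each start in RefSeq's annotation of GRCm38.p6. None was matched for Hdac1 and Hdac3. Of the 12 windows 4 are printed, each 5′ to 3′ on the gene's own strand, with E-boxes (CANNTG, bound by MyoD-type factors), GC boxes (GGGCGG on either strand) and the MEF2 consensus in capitals. Hdac5 is shown because its window (minus strand, chr11:102230173-102230422, just before the annotated gene) held the one match to the MEF2 consensus among the 12. Hdac9 has the widest range of levels, and both of its starts are shown (minus strand, chr12:34528890-34529139, inside the annotated gene, and chr12:34917096-34917345, at its upstream end). Hdac4 (minus strand, chr1:92180342-92180591, inside the annotated gene) is the class IIa gene furthest below the control in myotubes of both mutant lines.
Hdac5: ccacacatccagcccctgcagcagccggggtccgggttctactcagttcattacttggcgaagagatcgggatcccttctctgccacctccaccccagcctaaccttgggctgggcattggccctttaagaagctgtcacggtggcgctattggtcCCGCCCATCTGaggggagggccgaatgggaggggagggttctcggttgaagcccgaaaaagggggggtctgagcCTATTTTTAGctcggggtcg
Hdac9, start inside the gene: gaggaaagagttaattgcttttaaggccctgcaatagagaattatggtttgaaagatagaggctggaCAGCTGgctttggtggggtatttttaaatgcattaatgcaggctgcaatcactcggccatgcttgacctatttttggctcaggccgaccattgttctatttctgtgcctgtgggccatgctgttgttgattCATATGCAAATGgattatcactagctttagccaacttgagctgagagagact
Hdac9, upstream start: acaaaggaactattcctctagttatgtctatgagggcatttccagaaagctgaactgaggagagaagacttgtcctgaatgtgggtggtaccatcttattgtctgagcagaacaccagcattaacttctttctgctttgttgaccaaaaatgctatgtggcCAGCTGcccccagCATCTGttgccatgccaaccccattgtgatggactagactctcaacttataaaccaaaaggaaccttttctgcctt
Hdac4: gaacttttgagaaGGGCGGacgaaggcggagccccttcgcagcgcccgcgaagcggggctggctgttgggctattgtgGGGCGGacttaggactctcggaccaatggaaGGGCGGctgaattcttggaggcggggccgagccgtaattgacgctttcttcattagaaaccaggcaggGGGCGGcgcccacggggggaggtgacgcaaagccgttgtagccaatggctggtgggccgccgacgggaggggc
The capitals near the 3′ end of the Hdac5 window are the MEF2 consensus, which 2.92% of all 32851 RefSeq windows of this length hold. The other Hdac5 capitals are a GC box on the opposite strand that shares a base with an E-box. Both Hdac9 windows held an E-box of the form CAGCTG, found in 13.0% of all windows, and no GC box. The Hdac4 window held 4 GC boxes and no E-box. Over all windows, 66.22% held a CANNTG and 32.74% a GC box, against 7 and 6 of the 12 windows of these genes. A match is a description of the letters and not a bound site.

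Levels of different genes were compared per kb of annotated exon. In control myoblasts Hdac3 stood at 32.0 ± 0.754 CPM per kb (SD, n = 3), Hdac7 at 26.6 ± 0.806, Hdac2 at 24.3 ± 0.692 and Hdac5 at 14.2 ± 0.753. By each gene's own counts, these 4 genes were the most abundant of the family. The place of Hdac1 in this order is uncertain, because near-identical pseudogenes, described below, may hold some of its reads. In control myoblasts Hdac1 averaged 20.3 CPM by its own counts and 95.3 CPM with those copies added. Hdac6 stood at 8.68 ± 0.282 CPM per kb, Hdac1 at 5.89 ± 0.433, Hdac4 at 4.51 ± 0.306, Hdac11 at 3.12 ± 0.254 and Hdac8 at 2.18 ± 0.138. Hdac9 was the least abundant in every group, at 0.0297 ± 0.00834 CPM per kb in control myoblasts and at most 0.566 ± 0.0891, in overexpressor myoblasts. In knockout myotubes Hdac3 (21.7 ± 1.19 CPM per kb), Hdac2 (20.3 ± 4.06), Hdac11 (20.2 ± 0.691) and Hdac5 (19.0 ± 2.05) lay no further apart than the SD of Hdac2.

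**Figure D1:**
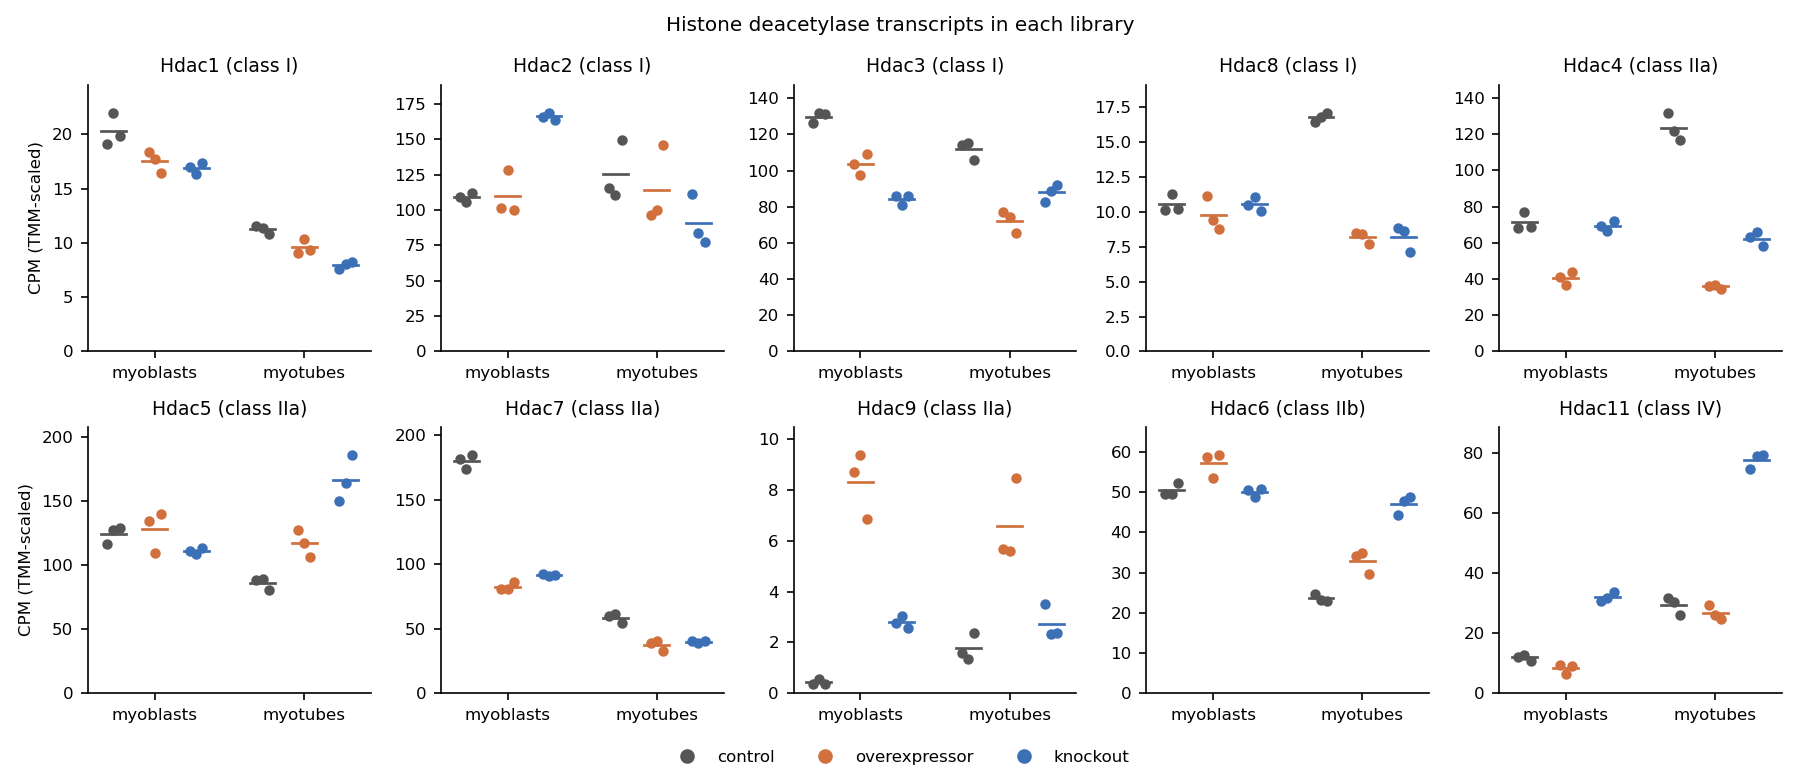
CPM of each of the 10 histone deacetylase genes (vertical axis, linear, from 0) in each of the 18 libraries, as points, with the mean of each group as a horizontal line, for control (grey), overexpressor (orange) and knockout (blue) myoblasts and myotubes. Hdac9 is near 0 in control myoblasts and highest in the overexpressor line, and Hdac11 reaches 74.6 to 79.4 CPM in knockout myotubes.

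Class I supplied the largest share of the family's summed CPM per kb in every group, and the balance with class IIa differed between groups. Class I made up 53.0% ± 0.183 (SD, n = 3) in control myoblasts and 62.0% ± 2.62 in control myotubes, and class IIa 37.3% ± 0.238 and 26.3% ± 1.66. The control's class I share was thus higher, and its class IIa share lower, in every myotube library than in every myoblast library. In the overexpressor line class I was at 57.7% ± 2.86 and 58.2% ± 4.09, and class IIa at 30.2% ± 2.04 and 26.4% ± 2.57, in myoblasts and myotubes. In the knockout line class I was at 57.6% ± 0.443 in myoblasts and 44.5% ± 2.76 in myotubes, while class IIa was at 27.3% ± 0.174 and 28.1% ± 1.73. Class IV, which is Hdac11 alone, took 2.57% ± 0.234 in control myoblasts, 7.61% ± 0.826 in control myotubes and 19.5% ± 0.737 in knockout myotubes. These shares are descriptions with no test. Hdac1 enters with its own counts only: with its pseudogene copies added, class I was at 60.1% ± 0.239 in control myoblasts and 49.3% ± 2.39 in knockout myotubes.

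**Figure D2:**
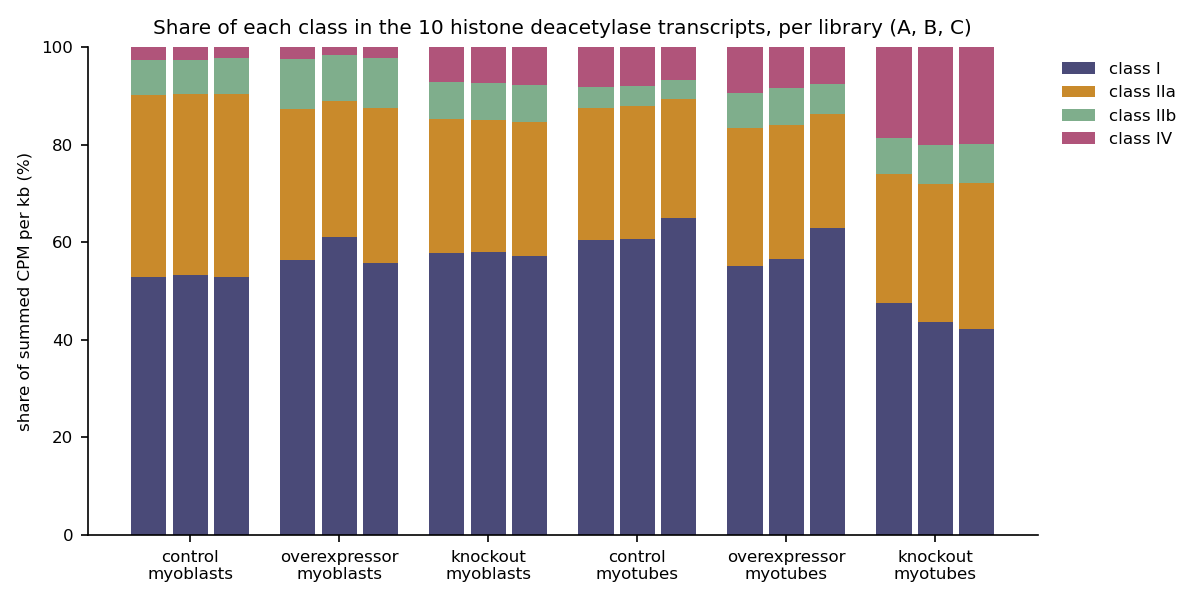
Share of each class (vertical axis, percent) in the summed CPM per kb of the 10 genes, 1 stacked bar per library, with libraries A, B and C side by side in each of the 6 groups. Class I (dark blue, bottom) is at 52.8 to 53.2% in the 3 control myoblast libraries and at 42.2 to 47.6% in the 3 knockout myotube libraries, where class IV (rose, top) is at 18.7 to 20.1%.

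Differentiation of the control line moved most of the family. Class IIa split: Hdac9 and Hdac4 rose 4.06-fold and 1.73-fold, and Hdac7 and Hdac5 fell 3.07-fold and 1.44-fold. In class I, Hdac1 and Hdac3 fell, Hdac8 rose and Hdac2 did not pass the test. Hdac6 fell and Hdac11 rose. In all, 9 of the 10 passed an adjusted p of 0.05 in edgeR's quasi-likelihood test (4 higher, 5 lower in myotubes), against 62.8% of all genes tested. The median log2 fold change was -0.01 for class I, 0.13 for class IIa and 0.07 for all genes tested. In the overexpressor line 7 of 10 passed (1 higher, 6 lower), against 62.8% of all genes. In the knockout line 6 of 10 passed (2 higher, 4 lower), against 65.4%. Class I medians in these lines were -0.38 and -0.62, class IIa medians -0.26 and -0.09, and those of all genes -0.02 and -0.08. Hdac1, Hdac7 and Hdac11 went the same way past the threshold in all 3 lines.

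**Figure D3:**
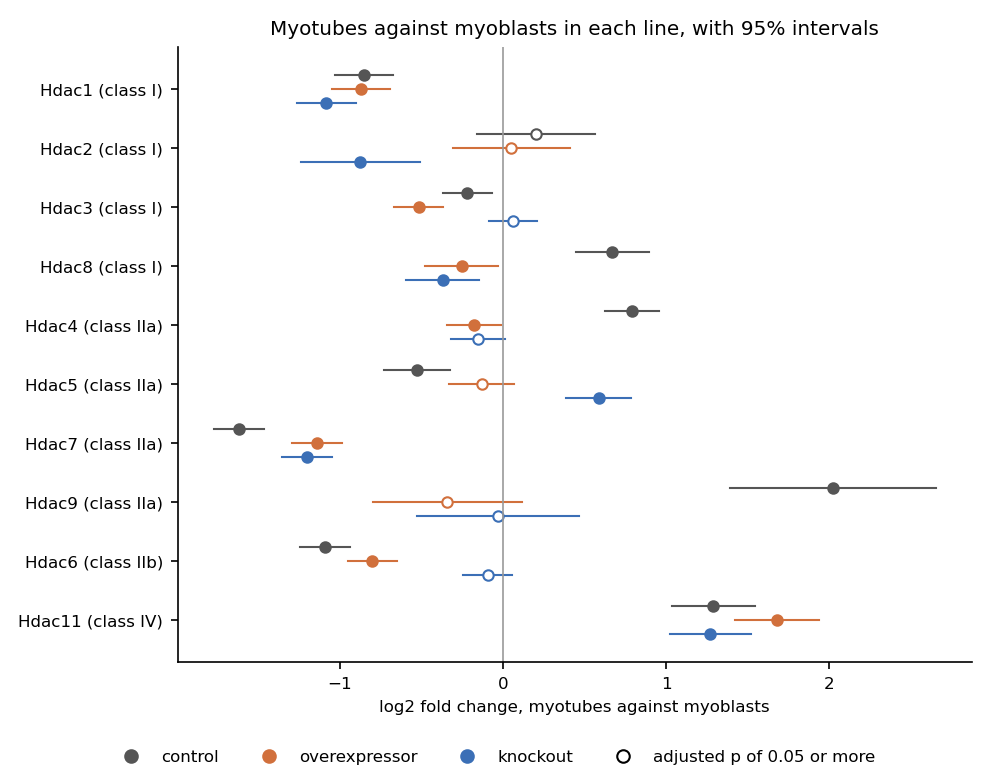
Log2 fold change of each gene between myotubes and myoblasts of the same line (horizontal axis) with its 95% interval, for control (grey), overexpressor (orange) and knockout (blue), with open points where the adjusted p was 0.05 or more. Hdac8, Hdac4 and Hdac9 have a filled point to the right of 0 in the control, at 0.67, 0.79 and 2.02 in that order, and in neither mutant line, and Hdac7 has a filled point to the left in all 3.

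The change on differentiation itself differed between lines for much of the family. Against the control's change, that of the overexpressor line differed for 7 of 10 genes (background 39.0% of all genes) and that of the knockout line for 8 of 10 (background 50.1%). Between the 2 mutant lines it differed for 5 of 10 (background 46.7%). All 4 class IIa genes differed from the control's change in both mutant lines, Hdac4 and Hdac9 downward and Hdac5 and Hdac7 upward. Both contrasts use the same control libraries. The count between the mutant lines is near its background, and no count was tested against one.

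In myoblasts, Hdac1, Hdac3 and Hdac7 were lower and Hdac9 higher than the control in both mutant lines. The Hdac1 calls were lost with some libraries left out, as given below. Hdac11 was higher in the knockout and lower in the overexpressor, Hdac2 was higher in the knockout, and Hdac4 was lower and Hdac6 slightly higher in the overexpressor. In overexpressor against control myoblasts 7 of 10 genes passed (2 higher, 5 lower), against 40.4% of all genes. Of the 2 higher, Hdac6 was lost under 11 of 14 alternatives. In knockout against control myoblasts 6 passed (3 higher, 3 lower), against 53.0%. Between overexpressor and knockout myoblasts 6 passed (3 higher, 3 lower), against 52.6%. Class I medians against the control were -0.16 in the overexpressor and -0.13 in the knockout, class IIa medians -0.38 and -0.10, and all-gene medians 0.02 and 0.02.

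In myotubes, Hdac1, Hdac3 and Hdac8 of class I and Hdac4 and Hdac7 of class IIa were lower than the control in both mutant lines, and Hdac5, Hdac9 and Hdac6 were higher in both. Of these calls, Hdac1 in the overexpressor and Hdac9 in the knockout were lost under several alternatives, given below. In knockout against control myotubes all 10 genes passed (4 higher, 6 lower), against 68.0% of all genes. Among them, Hdac2 and Hdac9 had libraries that overlapped the control's. Both calls were lost with some libraries left out, as given below. The 4 class I genes were all lower (median -0.48), while class IIa split into 2 higher and 2 lower (median 0.03), beside an all-gene median of -0.07. In overexpressor against control myotubes 8 passed (3 higher, 5 lower), against 57.1%, with 3 class I genes lower (median -0.43) and class IIa again split 2 and 2 (median -0.10). The all-gene median was -0.04. Between overexpressor and knockout myotubes 7 passed (2 higher, 5 lower), against 59.7%, and of the 2 higher Hdac1 was lost without overexpressor myotubes B. Both comparisons with the control use the same control libraries. Without the 3 libraries that stand apart, 6 of 10 passed for the overexpressor and 6 for the knockout against control myoblasts, and 7 and 10 against control myotubes. Without them 9 passed on differentiation of the control, 5 of the overexpressor and 7 of the knockout. The shares of all genes called without these libraries are not given here, so these counts are not set against a background.

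**Figure D4:**
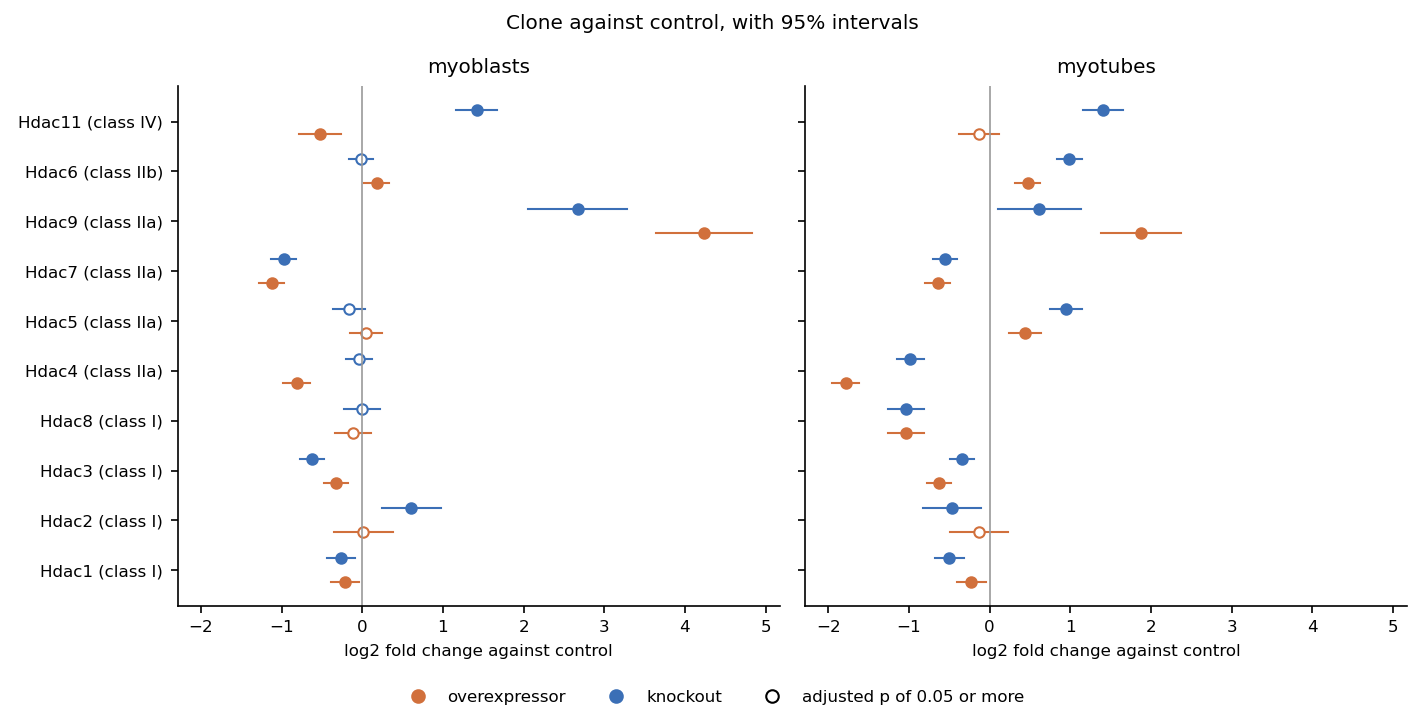
Log2 fold change of each gene in the overexpressor (orange) and knockout (blue) lines against the control (horizontal axis), with its 95% interval, in myoblasts (left) and myotubes (right), with open points where the adjusted p was 0.05 or more. Hdac9 stands furthest to the right in myoblasts, at 4.24 and 2.67, and in myotubes the 4 class I genes of the knockout line lie between -1.04 and -0.34.

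Hdac1 (chr4:129516104-129542713, minus strand) encodes a catalytic subunit of the SIN3, NuRD and CoREST complexes. Its level lay at 19.1 to 22.0 CPM in control, 16.4 to 18.4 in overexpressor and 16.3 to 17.3 in knockout myoblasts, and at 10.8 to 11.6, 9.12 to 10.4 and 7.58 to 8.28 CPM in the myotubes. Every myotube library was below every myoblast library. It fell on differentiation by 0.85 on the log2 scale in the control (SE 0.08, adjusted p = 4.37e-08), and by 0.87 and 1.08 in the overexpressor and knockout lines (adjusted p = 3.14e-08 and 3.26e-09). Knockout myotubes were lower than control myotubes (log2 fold change -0.50, SE 0.08, adjusted p = 4.01e-05) and than overexpressor myotubes (overexpressor against knockout 0.27, SE 0.08, adjusted p = 0.00974). The last call was lost without overexpressor myotubes B (0.21, adjusted p = 0.0540). Differences in the other comparisons between lines were small: -0.21 (SE 0.08, adjusted p = 0.0429) and -0.26 (SE 0.08, adjusted p = 0.00996) for overexpressor and knockout against control myoblasts, and -0.23 (SE 0.08, adjusted p = 0.0233) for overexpressor against control myotubes. The overexpressor calls were lost without control myoblasts B or C or overexpressor myoblasts B or C (-0.23 to -0.15, adjusted p = 0.0661 to 0.206) in myoblasts, and without control myotubes A or B or overexpressor myotubes A or C (-0.22 to -0.10, adjusted p = 0.0582 to 0.379) in myotubes. The knockout call in myoblasts was lost without control myoblasts B (-0.21, adjusted p = 0.0690). These counts are uncertain, because the genome holds near-identical processed pseudogenes of Hdac1. Gm10093 (chr17:78491582-78493025) matches 1444 bases of the Hdac1 transcript at 99.4% identity and had 1577 to 3801 counts per library, more than Hdac1's own 396 to 1143. A copy on chromosome 18 had 37 to 129 counts. Summed with both, Hdac1 averaged 95.3 ± 4.54 CPM (SD, n = 3) in control myoblasts and 59.3 ± 0.662 in control myotubes. The summed counts fell on differentiation of the control (-0.68, adjusted p = 1.97e-08) and were lower in knockout than control myotubes (-0.52, adjusted p = 8.17e-07). They were also lower in overexpressor than control myotubes (-0.34, adjusted p = 1.34e-04). With the sum, the knockout line's change on differentiation also differed from the control's (-0.23, adjusted p = 0.0374).

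Hdac2 (chr10:36974544-37001889, plus strand), the close relative of Hdac1 in the same complexes, was highest in knockout myoblasts. There it reached 166, 169 and 164 CPM in libraries A, B and C, against 109, 106 and 112 in control and 102, 129 and 99.9 in overexpressor myoblasts. The knockout libraries stood above all others of the series (1.53-fold higher than control, log2 fold change 0.61, SE 0.17, adjusted p = 0.00580). In myotubes the values were 115, 111 and 149.8 CPM in control, 96.5, 100.2 and 146 in overexpressor and 111, 83.5 and 77.3 in knockout libraries. The highest value of each myotube group came from control C, overexpressor C and knockout A, the libraries whose deviations ran against GC content, and the Hdac2 transcript has the lowest GC content of the 10 (41.9%). The part of this in the Hdac2 values was not tested. On differentiation Hdac2 fell in the knockout line (log2 fold change -0.87, SE 0.17, adjusted p = 2.98e-04), with no overlap between stages. In the control and overexpressor lines it changed by 0.20 (95% interval -0.16 to 0.56) and 0.05 (-0.31 to 0.41), which did not pass. The knockout line's change differed from the control's by -1.08 (SE 0.23, adjusted p = 0.00144) and from the overexpressor's by 0.93 (SE 0.23, adjusted p = 0.00481) (overexpressor minus knockout). Knockout myotubes were lower than control myotubes (log2 fold change -0.47, SE 0.17, adjusted p = 0.0214), with overlapping libraries. That call was lost without control myotubes C or knockout myotubes B or C (-0.41 to -0.32, adjusted p = 0.0761 to 0.119), and the value was -0.24 without the 3 libraries that stand apart.

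Hdac3 (chromosome 18, minus strand) encodes the catalytic subunit of the NCoR complex. It was highest in control myoblasts, at 126, 132 and 131 CPM, against 104, 97.4 and 109 in overexpressor and 86.1, 80.7 and 85.9 in knockout myoblasts. The 3 groups did not overlap, and both mutant lines were lower than the control (-0.33, SE 0.07, adjusted p = 7.66e-04 for the overexpressor, -0.62, SE 0.07, adjusted p = 4.08e-07 for the knockout). In myotubes it lay at 114, 115 and 106 CPM in control, 77.1, 74.5 and 65.5 in overexpressor and 82.8, 89.0 and 92.3 in knockout libraries. The order of the mutant lines was thus turned around, with the overexpressor lowest: against the control it had -0.63 (SE 0.07, adjusted p = 3.02e-07) and the knockout -0.34 (SE 0.07, adjusted p = 2.36e-04). The knockout's difference was -0.21 with DESeq2 size factors. Between overexpressor and knockout myotubes the difference was -0.28 (SE 0.07, adjusted p = 0.00181), a call lost with only those groups in the fit. Hdac3 fell on differentiation of the overexpressor line (log2 fold change -0.52, SE 0.07, adjusted p = 2.66e-06) and, by less, in the control (log2 fold change -0.22, SE 0.07, adjusted p = 0.01000). The control's call was lost without control myotubes C (-0.18, adjusted p = 0.0534), and the value was -0.46 with library totals in place of TMM. In the knockout line it changed by 0.06 (95% interval -0.09 to 0.21), which did not pass. DESeq2 size factors gave a call (0.19, adjusted p = 0.0471), as did leaving out the 3 libraries that stand apart (0.16, adjusted p = 0.0204), while library totals turned the sign (-0.11). The difference between the mutant lines' changes passed (-0.58, SE 0.10, adjusted p = 1.07e-04, overexpressor minus knockout).

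Hdac8 (chrX:102284639-102505359, minus strand), a class I enzyme that acts outside the large corepressor complexes and deacetylates cohesin, rose on differentiation of the control. It fell in both mutant lines, by less and with calls that depended on the scaling. Its control level went from 10.1, 11.3 and 10.2 CPM in myoblasts to 16.5, 16.8 and 17.1 in myotubes (log2 fold change 0.67, SE 0.10, adjusted p = 1.43e-05, and 0.43 with library totals). Overexpressor myoblasts lay at 11.1, 9.40 and 8.76 CPM and knockout myoblasts at 10.5, 11.1 and 10.1, and both overlapped the control. Myotubes of the overexpressor lay at 8.52, 8.39 and 7.71 CPM and those of the knockout at 8.83, 8.62 and 7.11. Each was below every control library, of either stage. Against control myotubes the overexpressor was 2.05-fold lower (log2 fold change -1.03, SE 0.10, adjusted p = 8.15e-08) and the knockout 2.05-fold lower (log2 fold change -1.04, SE 0.10, adjusted p = 7.12e-08). The 2 mutant lines differed from each other by 0.00 in myotubes, with a 95% interval of -0.22 to 0.23. Within the lines Hdac8 fell on differentiation by 0.25 in the overexpressor (SE 0.10, adjusted p = 0.0412) and 0.37 in the knockout (SE 0.10, adjusted p = 0.00458). The overexpressor call was lost without overexpressor myoblasts A or overexpressor myotubes A, B or C (-0.27 to -0.14, adjusted p = 0.0545 to 0.263), and the knockout call with DESeq2 size factors (-0.24, adjusted p = 0.0545). Both changes differed from the control's (-0.92, SE 0.14, adjusted p = 4.91e-05 for the overexpressor, -1.04, SE 0.14, adjusted p = 1.18e-05 for the knockout).

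Hdac4 (chr1:91928779-92195699, minus strand), a MEF2 repressor of class IIa whose nuclear export CaMK signals control, rose in control myotubes. It was lower than the control in the overexpressor at both stages and in the knockout in myotubes. Control libraries went from 68.2, 76.9 and 68.8 CPM in myoblasts to 132, 122 and 117 in myotubes (log2 fold change 0.79, SE 0.08, adjusted p = 3.99e-08). Overexpressor libraries lay at 41.0, 36.8 and 44.0 CPM in myoblasts and 36.3, 36.9 and 34.5 in myotubes. That placed both overexpressor groups below every other library of the series (1.76-fold lower than control myoblasts in the first of them, -0.81, SE 0.08, adjusted p = 8.33e-08). In myotubes the overexpressor was 3.44-fold lower than the control (log2 fold change -1.78, SE 0.08, adjusted p = 1.18e-12). Knockout libraries lay at 69.1, 66.5 and 72.2 CPM in myoblasts, where they overlapped the control (95% interval of the difference -0.21 to 0.12), and at 63.2, 65.8 and 58.1 in myotubes, 1.98-fold lower than the control (log2 fold change -0.98, SE 0.08, adjusted p = 2.45e-09). Between overexpressor and knockout the difference was -0.77 (SE 0.08, adjusted p = 9.92e-08) in myoblasts and -0.80 (SE 0.08, adjusted p = 1.09e-07) in myotubes. On differentiation the overexpressor changed by -0.18 (SE 0.08, adjusted p = 0.0490) and the knockout by -0.15 (adjusted p = 0.0880). The overexpressor call was lost under 12 of 14 alternatives, with DESeq2 size factors (-0.09, adjusted p = 0.333) among them and without overexpressor myoblasts A or C or overexpressor myotubes A, B or C (-0.19 to -0.11, adjusted p = 0.0649 to 0.298). The knockout change passed as a fall with library totals (-0.32, adjusted p = 0.00154) and was -0.02 with DESeq2's Wald test. Both changes were below the control's (-0.97, SE 0.11, adjusted p = 8.73e-07 and -0.94, SE 0.11, adjusted p = 1.02e-06). A noncoding gene on the opposite strand, Gm26720, shares 3536 bases of Hdac4's exons and has no row in the table. Reads from it would be counted in Hdac4 if strand was not used, which is not given in the sources used here.

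Hdac5 (chr11:102194432-102230166, minus strand) is the class IIa relative of Hdac4 that shares its MEF2 binding and export control, and the gene whose promoter window holds the MEF2 consensus printed above. Its direction on differentiation differed between lines. In the control it fell from 117, 128 and 129 CPM in myoblasts to 88.7, 89.6 and 81.2 in myotubes (log2 fold change -0.53, SE 0.09, adjusted p = 7.25e-05). In the knockout it rose from 111, 109 and 113 to 150.5, 164 and 186 CPM (log2 fold change 0.59, SE 0.09, adjusted p = 2.47e-05). The stages did not overlap in either line. In the overexpressor it lay at 135, 110.1 and 140.1 CPM in myoblasts and 128, 118 and 107 in myotubes, which overlap (change -0.13, 95% interval -0.33 to 0.07). The lowest overexpressor myoblast value and the lowest overexpressor myotube value came from B and C, 2 of the libraries that stand apart. Without overexpressor myoblasts B the change passed (-0.23, adjusted p = 0.0310). The lowest value of each myotube group came from control C, overexpressor C and knockout A, and the Hdac5 transcript has 59.8% GC. The same held for Hdac3, Hdac6 and Hdac11, at 47.1%, 52.6% and 57.4% GC. Hdac7, at 60.2% GC, was lowest in control C, overexpressor C and knockout B. The part of this in the Hdac5 values was not tested. In myotubes both mutant lines were above the control (0.44, SE 0.09, adjusted p = 4.79e-04 for the overexpressor and 0.95, SE 0.09, adjusted p = 6.04e-08 for the knockout), and the overexpressor was below the knockout (-0.51, SE 0.09, adjusted p = 1.45e-04). In myoblasts neither differed from the control past the threshold (0.04 and -0.16), although the knockout libraries all lay below the control's. With only those 2 groups in the fit the knockout passed (-0.17, adjusted p = 0.00154). The knockout line's change differed from the control's (1.11, SE 0.13, adjusted p = 1.56e-06) and from the overexpressor's (-0.72, SE 0.13, adjusted p = 2.47e-04, overexpressor minus knockout). The overexpressor's differed from the control's by 0.40 (SE 0.13, adjusted p = 0.0213), a call lost without overexpressor myoblasts B, control myotubes C or overexpressor myotubes A (0.30 to 0.36, adjusted p = 0.0541 to 0.0555).

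Hdac7 (chr15:97792664-97844502, minus strand), the class IIa member known for repressing MEF2 targets in endothelial cells and developing thymocytes, was highest in control myoblasts by a wide margin. The 3 control myoblast libraries had 182, 174 and 184 CPM, the overexpressor 81.2, 80.5 and 86.1 and the knockout 92.3, 91.1 and 91.6. The groups did not overlap, and the mutant lines were 2.18-fold lower (overexpressor, log2 fold change -1.12, SE 0.07, adjusted p = 3.05e-10) and 1.96-fold lower (knockout, log2 fold change -0.97, SE 0.07, adjusted p = 1.38e-09). On differentiation Hdac7 fell in every line, to 59.8, 61.4 and 54.8 CPM in control, 39.2, 40.5 and 33.0 in overexpressor and 40.4, 39.2 and 40.4 in knockout myotubes. The fall was 1.62 on the log2 scale for the control, 1.14 for the overexpressor and 1.20 for the knockout (adjusted p = 6.37e-13, 8.56e-11 and 1.14e-10). The fall was smaller in both mutant lines (0.48, SE 0.10, adjusted p = 6.55e-04 and 0.42, SE 0.10, adjusted p = 0.00178 against the control's). Mutant myotubes were still below control myotubes (-0.64, SE 0.07, adjusted p = 2.80e-07 for the overexpressor, -0.55, SE 0.07, adjusted p = 1.54e-06 for the knockout). The 2 mutant lines did not differ past the threshold at either stage (-0.15, 95% interval -0.30 to -0.00, and adjusted p = 0.0763, in myoblasts, and -0.09, -0.24 to 0.06, in myotubes).

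Hdac9 (chr12:34047580-34917095, minus strand) is a class IIa gene on the same chromosome as Meg3 and is known in muscle for a splice form that keeps the MEF2-binding part and lacks the catalytic domain. Counts per gene do not separate its forms. It had 16 to 30 counts per library in control myoblasts, which is 0.374, 0.577 and 0.356 CPM. The overexpressor myoblasts reached 8.70, 9.36 and 6.84 CPM and the knockout myoblasts 2.75, 3.06 and 2.58. Neither line overlapped the control or the other (18.9-fold higher in the overexpressor, log2 fold change 4.24, SE 0.27, adjusted p = 5.38e-10). The knockout was 6.36-fold higher than the control (log2 fold change 2.67, SE 0.28, adjusted p = 2.35e-07), and the overexpressor was above the knockout (1.57, SE 0.22, adjusted p = 8.49e-06). On differentiation Hdac9 rose in the control, to 1.59, 1.35 and 2.38 CPM (log2 fold change 2.02, SE 0.29, adjusted p = 7.11e-06). The overexpressor myotubes lay at 5.66, 5.58 and 8.44 CPM and the knockout myotubes at 3.50, 2.34 and 2.36, so neither mutant line changed past the threshold (-0.34, 95% interval -0.80 to 0.12, and -0.03, -0.52 to 0.46). Without overexpressor myotubes C the overexpressor's change passed as a fall (-0.52, adjusted p = 0.0310). Both changes were below the control's (-2.36, SE 0.36, adjusted p = 3.49e-05 and -2.05, SE 0.37, adjusted p = 1.80e-04). Overexpressor myotubes stayed above control myotubes (1.88, SE 0.23, adjusted p = 1.23e-06) and above knockout myotubes (1.26, SE 0.22, adjusted p = 9.86e-05). Knockout myotubes overlapped control myotubes and were higher by 0.62 (SE 0.23, adjusted p = 0.0271). That call was lost without control myotubes A or B or knockout myotubes A (0.40 to 0.54, adjusted p = 0.0907 to 0.161), and the difference was 0.97 without the 3 libraries that stand apart. As for Hdac2, the highest library of each myotube group was control C, overexpressor C and knockout A, and the Hdac9 transcript has 45.0% GC. Hdac8, at 43.0% GC, was highest in control C and knockout A too, but lowest in overexpressor C (7.71 CPM, against 8.52 and 8.39).

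Hdac6 (chrX:7930120-7947889, minus strand), the cytoplasmic tubulin deacetylase, fell on differentiation of the control and the overexpressor, and did not change past the threshold in the knockout. Control libraries went from 49.6, 49.5 and 52.4 CPM in myoblasts to 24.8, 23.3 and 23.1 in myotubes (log2 fold change -1.09, SE 0.07, adjusted p = 1.80e-10). The overexpressor went from 58.7, 53.6 and 59.2 to 34.1, 34.8 and 29.7 CPM (log2 fold change -0.80, SE 0.07, adjusted p = 1.09e-08). Knockout libraries had 50.7, 48.8 and 50.8 CPM in myoblasts and 44.3, 47.8 and 48.9 in myotubes, which overlap (change -0.09, 95% interval -0.24 to 0.06). With library totals in place of TMM that change passed as a fall (-0.26, adjusted p = 0.00208). In myotubes the 3 lines did not overlap and stood in the order knockout, overexpressor, control (0.99, SE 0.07, adjusted p = 8.82e-10 and 0.47, SE 0.07, adjusted p = 1.39e-05 against the control). The knockout's change differed from the control's (1.00, SE 0.10, adjusted p = 1.91e-07) and from the overexpressor's (-0.71, SE 0.10, adjusted p = 1.60e-05, overexpressor minus knockout). In myoblasts the overexpressor was slightly above the control (0.18, SE 0.07, adjusted p = 0.0478) and the knockout (0.19, SE 0.07, adjusted p = 0.0278). The first of these calls was lost without control myoblasts A, B or C or overexpressor myoblasts A or C (0.15 to 0.20, adjusted p = 0.0599 to 0.152), and the second without overexpressor myoblasts A or C or knockout myoblasts A, B or C (0.17 to 0.20, adjusted p = 0.0558 to 0.0973). The overexpressor's change on differentiation differed from the control's by 0.29 (SE 0.10, adjusted p = 0.0251), a call lost without control myoblasts C, overexpressor myoblasts B, control myotubes B or C or overexpressor myotubes A or B (0.25 to 0.28, adjusted p = 0.0531 to 0.0683). That difference was 0.48 with library totals and 0.47 without overexpressor myotubes C.

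Hdac11 (chr6:91156665-91174692, plus strand), the class IV enzyme, which can also remove fatty-acyl groups from lysine, was set apart by the knockout line. Knockout myoblasts had 30.8, 31.9 and 33.7 CPM, against 12.2, 12.9 and 11.0 in control and 9.58, 6.53 and 9.03 in overexpressor myoblasts. The knockout was 2.67-fold higher than the control (log2 fold change 1.42, SE 0.12, adjusted p = 9.17e-09), and its myoblasts overlapped the range of control myotubes. The overexpressor was lower than the control (log2 fold change -0.52, SE 0.12, adjusted p = 0.00164), with its lowest value in library B, which stands apart. On differentiation Hdac11 rose in every line, to 31.7, 30.5 and 26.1 CPM in control, 29.6, 26.1 and 24.8 in overexpressor and 74.6, 79.0 and 79.4 in knockout myotubes. The rise was 1.29 on the log2 scale for the control, 1.68 for the overexpressor and 1.27 for the knockout (adjusted p = 1.83e-08, 5.68e-10 and 2.40e-08). The knockout's rise differed from the control's by -0.02 (95% interval -0.37 to 0.33). The overexpressor's rise differed from the control's by 0.39 (95% interval 0.03 to 0.74, adjusted p = 0.0695), which did not pass, but did so under 6 alternatives, DESeq2 size factors (0.50, adjusted p = 0.0273) and library totals (0.58, adjusted p = 0.00715) among them. Knockout myotubes were above control myotubes by 1.40 (SE 0.11, adjusted p = 5.03e-09). Overexpressor and control myotubes overlapped (-0.13, 95% interval -0.38 to 0.11). The knockout was above the overexpressor at both stages (overexpressor against knockout -1.94, SE 0.12, adjusted p = 1.54e-10 in myoblasts and -1.53, SE 0.11, adjusted p = 4.76e-09 in myotubes). The difference between the mutant lines' changes, 0.41 (SE 0.16, adjusted p = 0.0468), was lost without overexpressor myoblasts B, knockout myoblasts A, B or C, overexpressor myotubes A or B or knockout myotubes A, B or C (0.26 to 0.44, adjusted p = 0.0524 to 0.114).

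Of the 10 genes, 7 had group means at least 2-fold apart, from 2.05-fold for Hdac8 to 19.0-fold for Hdac9, and the tested genes whose log2 CPM followed theirs most closely over the 18 libraries were read off by Pearson's r. For Hdac9 this was Stim2 (r = 0.965), and for Hdac4 they were Aff3 (r = 0.968) and Tlr2 (r = 0.965). For Hdac7 they were Pcyt1b (r = 0.981) and Hivep3 (r = 0.981), and for Hdac8 Inpp5b (r = 0.967) and Sparc (r = 0.958). For Hdac6 they were Fzr1 (r = 0.990) and Dnph1 (r = 0.975), and for Hdac11 Psmb6 (r = 0.988) and Mylk (r = 0.985). Hdac1 was closest to its own pseudogene Gm10093 and to Uba2 (r = 0.985 and 0.982). The libraries share lines, stages and depth, so these values describe likeness across 6 groups and carry no test.

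The subunits of the complexes that hold class I enzymes moved in both directions. Of 34 corepressor subunits, all tested, 6 rose and 10 fell on differentiation of the control (median -0.08), while 6 rose and 16 fell in the overexpressor and 10 rose and 13 fell in the knockout line. Against the control, 6 were higher and 7 lower in overexpressor and 4 were higher and 14 lower in knockout myoblasts (medians 0.02 and -0.17), and 10 were higher and 10 lower in overexpressor and 11 were higher and 16 lower in knockout myotubes (medians 0.01 and -0.06). The list's 16, 22 and 23 of 34 called on differentiation of control, overexpressor and knockout stood beside 62.8%, 62.8% and 65.4% of all genes. Its 13, 18, 20 and 27 called against the control, in the order just given, stood beside 40.4%, 53.0%, 57.1% and 68.0%. Sin3a, the scaffold of the SIN3 complex, fell on differentiation in all 3 lines (-0.63, -0.72 and -0.70, adjusted p of at most 3.34e-06). It was also lower in both mutant lines at both stages, as in knockout against control myotubes (-0.31, SE 0.09, adjusted p = 0.00363). Mta1, a NuRD subunit, was 211 ± 11.1 CPM (SD, n = 3) in control and 135 ± 2.16 in knockout myoblasts (log2 fold change -0.64, SE 0.08, adjusted p = 8.66e-07). Chd4, the NuRD remodeling ATPase, differed little: -0.16 (SE 0.06, adjusted p = 0.0225) in knockout against control myoblasts and -0.08 in myotubes, where it did not pass. Ncor1, the partner of HDAC3, was lower in knockout than control myotubes (-0.55, SE 0.12, adjusted p = 4.95e-04). Rcor1, of the CoREST complex, was lower in knockout than control myotubes (-0.77, SE 0.11, adjusted p = 6.88e-06). The subunits furthest from the control in knockout myotubes were Mier2 (1.35, SE 0.08, adjusted p = 7.11e-11) and Arid4b (-2.04, SE 0.38, adjusted p = 2.53e-04), and in overexpressor myotubes Mier2 (0.73, SE 0.08, adjusted p = 2.90e-07) and Mbd2 (-0.84, SE 0.07, adjusted p = 2.12e-08).

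Of the 25 partners and regulators of class IIa proteins, 23 were tested, since Prkd1 and Camk4 were too low. On differentiation of the control 10 rose and 10 fell, in the overexpressor 9 rose and 13 fell and in the knockout 6 rose and 9 fell. Against the control, 11 were higher and 3 lower in overexpressor myoblasts, 10 were higher and 9 lower in knockout myoblasts, 9 were higher and 10 lower in overexpressor myotubes and 7 were higher and 10 lower in knockout myotubes. The called members numbered 20, 22 and 15 of 23 on differentiation, beside 62.8%, 62.8% and 65.4% of all genes, and 14, 19, 19 and 17 of 23 against the control, beside 40.4%, 53.0%, 57.1% and 68.0%. Medians against the control were 0.17, -0.01, -0.03 and -0.16, and those of all genes 0.02, 0.02, -0.04 and -0.07. Mef2c, a MEF2 factor that marks differentiating muscle, stood at 0.163 ± 0.0519 CPM in control myoblasts, 0.873 ± 0.242 in overexpressor and 26.5 ± 3.32 in knockout myoblasts (SD, n = 3). It reached 77.7 ± 9.61, 120.0 ± 54.2 and 115 ± 28.3 CPM in the myotubes. The knockout myoblasts thus had Mef2c well above control myoblasts (log2 fold change 7.35, SE 0.44, adjusted p = 2.19e-09). In the same comparison Hdac7 was lower (-0.97), Hdac9 was higher (2.67), and Hdac4 and Hdac5 did not pass (-0.04 and -0.16). Mef2a went from 98.4 ± 4.60 CPM in control to 351 ± 14.3 in knockout myoblasts (log2 fold change 1.84, SE 0.20, adjusted p = 2.08e-06). It was lower in knockout than control myotubes (-1.02, adjusted p = 3.55e-04). Mef2d was higher in both mutant lines at both stages, from 0.39 (adjusted p = 9.35e-05) in overexpressor myoblasts to 1.02 (adjusted p = 2.22e-10) in knockout myotubes. Sik1, a kinase that phosphorylates class IIa proteins, was also higher in both mutant lines at both stages, with 52.6 ± 1.11, 93.8 ± 2.32 and 150.4 ± 4.57 CPM in control, overexpressor and knockout myoblasts (0.83, SE 0.07, adjusted p = 1.59e-08 and 1.51, SE 0.07, adjusted p = 3.69e-12). Camk2g was higher in knockout than control myoblasts (0.54, SE 0.05, adjusted p = 2.17e-08) and myotubes (0.95, SE 0.05, adjusted p = 7.31e-12). In overexpressor myoblasts Camk1d was the highest of the list against the control (1.38, SE 0.15, adjusted p = 6.38e-07) and Sik2 the lowest (-0.69, SE 0.08, adjusted p = 1.47e-06).

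The 7 sirtuins are NAD-dependent deacetylases of a separate family. On differentiation of the control 2 passed, both as a rise, with Sirt2 the higher (0.81, SE 0.08, adjusted p = 4.39e-08). In the overexpressor 1 rose and 3 fell, and in the knockout 2 rose and 1 fell. These 2, 4 and 3 of 7 stood beside 62.8%, 62.8% and 65.4% of all genes called. The overexpressor's count was near its background, and no count was tested against one. Against control myoblasts 2 passed in the overexpressor and 2 in the knockout, each as higher. In myotubes 1 was higher and 1 lower in the overexpressor, and 2 higher and 1 lower in the knockout. The background in these 4 comparisons was 40.4%, 53.0%, 57.1% and 68.0%. Sirt5, a mitochondrial enzyme, was higher in overexpressor myoblasts (0.94, SE 0.09, adjusted p = 2.09e-07), and Sirt1 was lower in knockout than control myotubes (-0.79, SE 0.22, adjusted p = 0.00540). The 10 histone acetyltransferases catalyze the opposite reaction. On differentiation 5 fell and 2 rose in the control (median -0.24), 8 passed in the overexpressor, each as a fall, and 8 fell and 1 rose in the knockout. Of all genes 62.8%, 62.8% and 65.4% were called in these comparisons and 28.8%, 33.0% and 35.6% fell. Against control myotubes 5 were lower and 1 higher in the overexpressor, and 5 lower and 1 higher in the knockout, beside 30.9% and 37.0% of all genes lower. Ep300, a coactivator of MyoD and MEF2, was lower in both mutant lines at both stages, at 151 ± 1.76, 102 ± 11.1 and 91.0 ± 4.38 CPM in control, overexpressor and knockout myoblasts (-0.56, SE 0.09, adjusted p = 6.18e-05 and -0.73, SE 0.09, adjusted p = 1.94e-06). Against control myotubes it stood at -0.55 (SE 0.09, adjusted p = 3.90e-05) and -0.87 (SE 0.09, adjusted p = 1.46e-07) for these lines. Kat2b was lower in knockout than control myoblasts (-0.53, SE 0.14, adjusted p = 0.00314). Kat6b was the lowest of the list against control myotubes in both lines (-1.31, SE 0.14, adjusted p = 1.71e-07 and -1.16, SE 0.14, adjusted p = 6.08e-07). Hat1, which acetylates newly made histones, fell most on differentiation of the control (-1.52, SE 0.11, adjusted p = 4.72e-10).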

How the data were processed

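Polyadenylated RNA was sequenced from the 18 libraries. The authors deposited whole-number read counts per gene, raw and not normalized, for 55450 Ensembl genes. Per the submitters' processing notes, STAR 2.7.9a, featureCounts of Subread 2.0.3, FastQC 0.11.7, DESeq2 1.32.0 and the mm10 build were used; strand use and annotation release are not given in the sources used here. Symbols, positions and exon lengths came from GENCODE M21 (GRCm38), which matched 55190 genes; the others held 0.0059% of counts. Counts were fitted once with a coefficient per group (12 residual degrees of freedom) in edgeR 4.0.16 (R 4.3.3): filterByExpr, TMM, robust quasi-likelihood, Benjamini-Hochberg over the 17912 genes tested, threshold 0.05. Log2 fold changes carry SEs, each the size of the change divided by the square root of the test's F. The 95% intervals use these SEs with 12 degrees of freedom, fewer than the test used, so they are somewhat wider than the p-values imply. Alternatives were DESeq2 size factors, library totals, DESeq2 1.42.0, no filter, at least 1 CPM in 3 libraries, a replicate block, each library left out, and only the groups compared. The fit was tried on simulated counts in which a small set of genes was changed, in overexpressor myoblasts only. That does not test the scaling where many genes differ, as they did here. A library stands apart where both its count comparisons within the group exceed 1.5 times that of the other pair (chi-square per degree of freedom). Pseudogene copies were searched at 95% identity over 100 bases. Named genes were all 10 members, 15 fixed companions, the called extremes of each companion list at 1 CPM or more, and the 2 genes most like each member spanning 2-fold; some that this rule names are not reported here. The members and lists were chosen with earlier results of these data known, so no list has a p-value. RefSeq promoter windows are on GRCm38.p6. Limits: gene counts do not separate isoforms or compartments, and proteins were not measured.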

Additional observations from a re-analysis of the deposited data

Results flagged for a closer look

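For 20 results the change on differentiation differed between lines by a test of the difference itself (edgeR's interaction contrast, log2 scale, Benjamini-Hochberg over all genes tested). They are set out by size of the difference, with the backgrounds given in the report. No explanation was tested.

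Overexpressor minus control, Hdac9 had -2.36 (SE 0.36, adjusted p = 3.49e-05), Hdac4 -0.97 (SE 0.11, adjusted p = 8.73e-07) and Hdac8 -0.92 (SE 0.14, adjusted p = 4.91e-05). These 3 genes rose in control myotubes and did not rise in the overexpressor line. Hdac7 had 0.48 (SE 0.10, adjusted p = 6.55e-04), Hdac5 0.40 (SE 0.13, adjusted p = 0.0213) and Hdac6 0.29 (SE 0.10, adjusted p = 0.0251), so that these 3 fell less than in the control, although the overexpressor's own change in Hdac5 did not pass. Hdac3 had -0.30 (SE 0.10, adjusted p = 0.0189). The calls of Hdac3, Hdac5 and Hdac6 were each lost with some library left out: Hdac3 without control myoblasts A, overexpressor myoblasts C or overexpressor myotubes C (-0.28 to -0.12, adjusted p = 0.0509 to 0.357), Hdac5 and Hdac6 as in the report.

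Knockout minus control, Hdac9 had -2.05 (SE 0.37, adjusted p = 1.80e-04), Hdac2 -1.08 (SE 0.23, adjusted p = 0.00144), Hdac8 -1.04 (SE 0.14, adjusted p = 1.18e-05) and Hdac4 -0.94 (SE 0.11, adjusted p = 1.02e-06). In the other direction Hdac5 had 1.11 (SE 0.13, adjusted p = 1.56e-06), Hdac6 1.00 (SE 0.10, adjusted p = 1.91e-07), Hdac7 0.42 (SE 0.10, adjusted p = 0.00178) and Hdac3 0.28 (SE 0.10, adjusted p = 0.0226). Hdac5 fell in the control and rose in the knockout, and Hdac8 rose in the control and fell in the knockout, each past the threshold. The knockout's own Hdac8 fall was lost with DESeq2 size factors (-0.24, adjusted p = 0.0545). The Hdac3 call was lost without control myoblasts B, knockout myoblasts B, control myotubes C or knockout myotubes C (0.24 to 0.27, adjusted p = 0.0504 to 0.0633).

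Overexpressor minus knockout, Hdac2 had 0.93 (SE 0.23, adjusted p = 0.00481), Hdac5 -0.72 (SE 0.13, adjusted p = 2.47e-04), Hdac6 -0.71 (SE 0.10, adjusted p = 1.60e-05), Hdac3 -0.58 (SE 0.10, adjusted p = 1.07e-04) and Hdac11 0.41 (SE 0.16, adjusted p = 0.0468). The Hdac11 result has the highest adjusted p of the 20.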

How the results depend on the processing

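Of 120 results (10 genes in 12 comparisons), 86 passed the threshold. Of these, 68 passed under every alternative run, 18 were lost under 1 or more, and 0 changed sign. No total count of genes called, or of these 10 genes called, moved by over 1.5 times. Counts by direction did: the higher count went from 2 to 1 in overexpressor against control myoblasts where Hdac6 was lost, in overexpressor against knockout myotubes where Hdac1 was lost, and in the response difference overexpressor minus knockout where Hdac11 was lost. In the response difference overexpressor minus control it went from 3 to 1 without overexpressor myoblasts B, control myotubes C or overexpressor myotubes A, each of which lost Hdac5 and Hdac6. Of the 34 that did not pass, 11 passed under some alternative and 18 changed sign, the largest of them 0.20 in size. The cause was not tested. With DESeq2 size factors the values of opposite sign were Hdac8 knockout against control myoblasts -0.0199, Hdac8 overexpressor against knockout myotubes -0.0153, Hdac9 knockout differentiation 0.0931, Hdac6 knockout differentiation 0.0345, Hdac1 the response difference overexpressor minus control 0.0969 and Hdac11 the response difference knockout minus control 0.136. With library totals they were Hdac2 overexpressor against control myoblasts -0.0237, Hdac8 knockout against control myoblasts -0.0235, Hdac2 overexpressor against control myotubes 0.00833, Hdac11 overexpressor against control myotubes 0.0157, Hdac7 overexpressor against knockout myotubes 0.0109, Hdac2 control differentiation -0.0378, Hdac2 overexpressor differentiation -0.00582, Hdac3 knockout differentiation -0.108, Hdac1 the response difference overexpressor minus control 0.172, Hdac2 the response difference overexpressor minus control 0.0320, Hdac11 the response difference knockout minus control 0.0560 and Hdac4 the response difference overexpressor minus knockout 0.0855. With DESeq2's Wald test they were Hdac8 knockout against control myoblasts -0.0201, Hdac8 overexpressor against knockout myotubes -0.0170, Hdac9 knockout differentiation 0.0925, Hdac6 knockout differentiation 0.0344, Hdac1 the response difference overexpressor minus control 0.0974 and Hdac11 the response difference knockout minus control 0.136. With no filter they were Hdac2 overexpressor against control myoblasts -0.00217, Hdac1 the response difference overexpressor minus control 0.0172 and Hdac4 the response difference overexpressor minus knockout 0.0200. With the stricter filter they were Hdac8 overexpressor against knockout myotubes -0.0143 and Hdac11 the response difference knockout minus control 0.00291. With only the groups compared they were Hdac2 overexpressor against control myoblasts -0.0163, Hdac8 knockout against control myoblasts -0.00735, Hdac9 knockout differentiation 0.0353 and Hdac11 the response difference knockout minus control 0.0787. Without the 3 libraries that stand apart they were Hdac2 overexpressor against control myoblasts -0.112, Hdac7 overexpressor against knockout myotubes 0.00536, Hdac9 knockout differentiation 0.0647, Hdac6 knockout differentiation 0.00435 and Hdac1 the response difference overexpressor minus control 0.0733. With each library left out in turn, the results that changed sign ranged as follows: Hdac5 overexpressor against control myoblasts -0.0236 to 0.143, Hdac8 knockout against control myoblasts -0.0345 to 0.0555, Hdac1 response overexpressor minus control -0.0736 to 0.119, Hdac2 overexpressor against control myoblasts -0.111 to 0.0800, Hdac4 knockout against control myoblasts -0.0741 to 0.0145, Hdac6 knockout against control myoblasts -0.0266 to 0.0147, Hdac11 response knockout minus control -0.0981 to 0.0438, Hdac2 overexpressor differentiation -0.117 to 0.180, Hdac4 response overexpressor minus knockout -0.0925 to 0.0347, Hdac9 knockout differentiation -0.248 to 0.0742, Hdac2 overexpressor against control myotubes -0.248 to 0.0136, Hdac2 response overexpressor minus control -0.252 to 3.15e-04, Hdac8 overexpressor against knockout myotubes -0.0882 to 0.0733, Hdac11 overexpressor against control myotubes -0.211 to 0.0251 and Hdac7 overexpressor against knockout myotubes -0.145 to 0.0243. Summing Hdac1 with its copies and leaving out the 3 libraries were chosen after seeing the data.

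The replicate letters are shared between groups. Over 45 same-letter pairs, the correlation of deviations ran from -0.36 to 0.26 (median -0.02), with 4 over 0.1. Of 18 libraries 0 were closest to their own letter. These values cannot show if libraries were handled as pairs. With the letter as a replicate block, 4 calls were lost: Hdac1 (-0.21, adjusted p = 0.0581) and Hdac6 (0.18, adjusted p = 0.0742) in overexpressor against control myoblasts, Hdac4 on differentiation of the overexpressor (-0.18, adjusted p = 0.0688) and Hdac11 in the response difference overexpressor minus knockout (0.41, adjusted p = 0.0585). The other 116 results kept their side of the threshold, and the count called in knockout against control myotubes stayed at 10 of 10.

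Scaling moved the median log2 fold change of all genes by over 0.1 in these comparisons. With library totals in place of TMM it went from 0.07 to -0.17 on control differentiation, from -0.08 to -0.24 on knockout differentiation, from -0.04 to 0.11 for overexpressor against control myotubes, and from -0.05 to 0.14 and 0.06 to 0.17 for the response differences overexpressor minus control and minus knockout. With DESeq2 size factors it became 0.04, 0.07 and 0.06 for knockout differentiation, overexpressor against control myotubes and the response difference overexpressor minus control, and went from -0.07 to 0.06 for knockout against control myotubes and from -0.12 to 0.04 for the response difference knockout minus control. The share of calls that were higher went with library totals from 54.0% to 37.9% (control differentiation), 45.5% to 34.0% (knockout differentiation), 45.8% to 57.8% (overexpressor against control myotubes) and 42.7% to 61.0% (response overexpressor minus control, 53.9% with DESeq2 size factors). It went from 40.4% to 52.0% with DESeq2 size factors for the response knockout minus control. With the length of the longest transcript, the class shares became class I 50.9% in control myoblasts, 58.5% in control myotubes, 55.9% in knockout myoblasts and 41.3% in knockout myotubes, and class IIa 40.3% in control myoblasts, 30.3% in control myotubes, 30.1% in knockout myoblasts, 32.1% in knockout myotubes, 33.7% in overexpressor myoblasts and 29.9% in overexpressor myotubes. With the pseudogene counts added to Hdac1, they became class I 60.1% in control myoblasts, 66.6% in control myotubes, 63.4% in knockout myoblasts, 49.3% in knockout myotubes, 64.6% in overexpressor myoblasts and 63.1% in overexpressor myotubes, and class IIa 31.6% in control myoblasts, 23.1% in control myotubes, 23.6% in knockout myoblasts, 25.7% in knockout myotubes, 25.3% in overexpressor myoblasts and 23.3% in overexpressor myotubes. Under both, the class I share remained above the class IIa share in every group. Depth limits Hdac9 most, at 16 to 30 counts in control myoblasts.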
